A study of Homo sapiens with 6 samples.

Results

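Transcripts of 7 genes for neuronal nicotinic acetylcholine receptors were followed in NGP, a human neuroblastoma cell line with amplified MYCN. They are CHRNA3, CHRNA4, CHRNA5, CHRNA7, CHRNA9, CHRNB2 and CHRNB4, and they were taken by gene symbol from a table of 19863 rows. All 7 were present and all 7 passed the low-count filter, among 14402 genes tested. Cells were exposed for 12 h to OTSSP167, a kinase inhibitor known for its action on MELK, which the study treats as an inhibitor of CAMKV, at 60 nM. Control cells received an equal volume of the solvent DMSO. Each group held 3 libraries, and both groups were grown in the same serum-containing medium with no other agent named in the labels. NGP is 1 line. Whether separate cultures stand behind the 3 libraries of each group is not stated in the labels, so each p-value reflects only how these libraries spread, which may be technical.

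Nicotinic receptors are cation channels built from 5 subunits around a central pore, and they open when acetylcholine binds at subunit interfaces. Sympathetic neurons, which share the neural crest origin of neuroblastoma, are known for receptors of alpha3 with beta4, some of which also take up alpha5 or beta2. Alpha4 with beta2 is the main high-affinity pair of the brain. Alpha7 forms channels on its own and is highly permeable to calcium, and alpha9 is best known from cochlear hair cells. CHRNA5, CHRNA3 and CHRNB4 stand side by side on chromosome 15 (band 15q25).

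Library totals were 36401828 to 57460375 counts. Levels are given as CPM, counts normalised to library depth and scaled between libraries by TMM (a trimmed-mean method), and are relative to the other transcripts of a library. Of 11 adrenergic neuroblast markers, 5 fell and 2 rose, with a median log2 fold change of -0.85 beside 0.0099 for all tested genes. Their summed level was 2496 to 2765 CPM in DMSO and 2335 to 2443 CPM in OTSSP167. That sum includes GATA3, which rose from 354 ± 5.52 to 820 ± 74.3 CPM (SD, n = 3), so it does not show the falls in the list. Over all tested genes 22.3% fell and 23.8% rose. TH, the first enzyme of catecholamine synthesis, was near 0, with means of 0.266 ± 0.130 (DMSO) and 0.148 ± 0.0620 CPM (OTSSP167; SD, n = 3). The Schwann and glial marker list summed to 3.996 to 4.79 CPM in DMSO and 6.91 to 10.4 CPM in OTSSP167, with SOX10 and CDH19 at 0. The immune list summed to 0.899 to 1.53 and 18.6 to 21.6 CPM, with CD3E at 0, and 2 of its 2 tested members, CD14 and CD74, rose. PTPRC, found on all white blood cells, and CD68 were near 0 and not tested. Their means were 0.0423 and 0.144 CPM in DMSO and 0.120 and 0.174 CPM in OTSSP167. The fibroblast and endothelial list summed to 84.0 to 98.6 and 34.9 to 35.8 CPM, with DCN at 0, and 2 of its 3 tested members fell. The part of these markers in the results below was not tested.

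Promoters are shown for the ganglionic pair CHRNA3 and CHRNB4, which are neighbours, and for CHRNB2 and CHRNA7, which lie elsewhere. RefSeq windows (GRCh38.p14) were matched for 5 of the 7 members, and none was available for CHRNA4 or CHRNA5. CHRNA7 had another, overlapping window with the same motif matches, which is not shown. Each run holds the 250 bases before a RefSeq start, 5′ to 3′ on the strand of the gene. Gene positions elsewhere in the text are those of GENCODE release 29, and the windows of CHRNA3, CHRNB4 and CHRNA7 lie inside those gene spans. Capitals mark every match on either strand to GGGCGG (a GC box, the core that SP1 recognises), CACGTG (an E-box of MYC and MAX), CAGCTG (another E-box) or TGACGTCA (the site of CREB). CHRNA3 is shown at chr15:78620997-78621246 (minus strand), CHRNB4 at chr15:78641211-78641460 (minus), CHRNB2 at chr1:154567528-154567777 (plus) and CHRNA7 at chr15:32030233-32030482 (plus).
CHRNA3: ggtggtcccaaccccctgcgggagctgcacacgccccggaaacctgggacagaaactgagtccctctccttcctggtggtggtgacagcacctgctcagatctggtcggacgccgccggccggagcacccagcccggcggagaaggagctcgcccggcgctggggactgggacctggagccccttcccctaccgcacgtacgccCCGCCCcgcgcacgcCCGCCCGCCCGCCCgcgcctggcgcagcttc
CHRNB4: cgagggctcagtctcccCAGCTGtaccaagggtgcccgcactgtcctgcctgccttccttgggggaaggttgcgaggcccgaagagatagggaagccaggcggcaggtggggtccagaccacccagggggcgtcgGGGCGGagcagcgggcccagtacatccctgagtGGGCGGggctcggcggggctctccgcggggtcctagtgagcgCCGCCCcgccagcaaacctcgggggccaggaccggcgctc
CHRNB2: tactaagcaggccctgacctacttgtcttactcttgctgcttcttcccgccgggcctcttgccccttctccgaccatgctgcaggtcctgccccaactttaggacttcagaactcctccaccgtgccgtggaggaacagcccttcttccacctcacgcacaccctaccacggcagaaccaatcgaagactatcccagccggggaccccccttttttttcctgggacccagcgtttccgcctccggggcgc
CHRNA7: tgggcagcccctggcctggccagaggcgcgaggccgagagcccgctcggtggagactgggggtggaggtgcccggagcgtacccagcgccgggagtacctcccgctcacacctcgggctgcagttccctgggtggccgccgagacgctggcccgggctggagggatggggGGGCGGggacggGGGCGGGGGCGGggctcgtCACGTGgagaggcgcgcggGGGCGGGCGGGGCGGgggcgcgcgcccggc
GGGCGG matched 4 times in the CHRNA3 window, 3 times in CHRNB4, 6 times in CHRNA7 and 0 times in CHRNB2, with overlapping matches counted separately. That motif stands in 42.6% of 35116 such windows of 250 bases. The CHRNA7 window held 1 CACGTG, which 6.34% of all windows hold, and the CHRNB4 window held 1 CAGCTG, which 14% hold. TGACGTCA was in 0 of these 4 windows and in 1.65% of all. The GC content was 73.6% for CHRNA3, 72.4% for CHRNB4, 60.4% for CHRNB2 and 80.4% for CHRNA7. The window of CHRNA9 (58% GC) held 0 matches to the 4 motifs.

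CHRNA5 was lower after OTSSP167, and the other 6 members did not pass the test. CHRNA3 had a log2 fold change of -1.12 against -0.82 for CHRNA5, an order that turned to -0.72 against -0.92 without OTSSP167 replicate 2. Its 3 treated libraries were all below the control libraries but varied widely among themselves, and it did not pass. The groups overlapped for CHRNB2, CHRNA7, CHRNA9, CHRNB4 and CHRNA4, the last of which was barely detected. The test was edgeR's quasi-likelihood test with Benjamini-Hochberg adjustment over all genes tested. Of the members 1 of 7 passed it, beside 46.1% of all tested genes (22.3% lower and 23.8% higher). The groups did not overlap in 2 of the 7 members, CHRNA3 and CHRNA5, both lower, against 60.4% of all tested genes (29.6% lower). The median log2 fold change of the 7 members was 0.0011, beside 0.0099 for all tested genes. In RNA from whole cultures, fewer cells that carry a transcript and less of it per cell cannot be told apart.

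**Figure D1:**
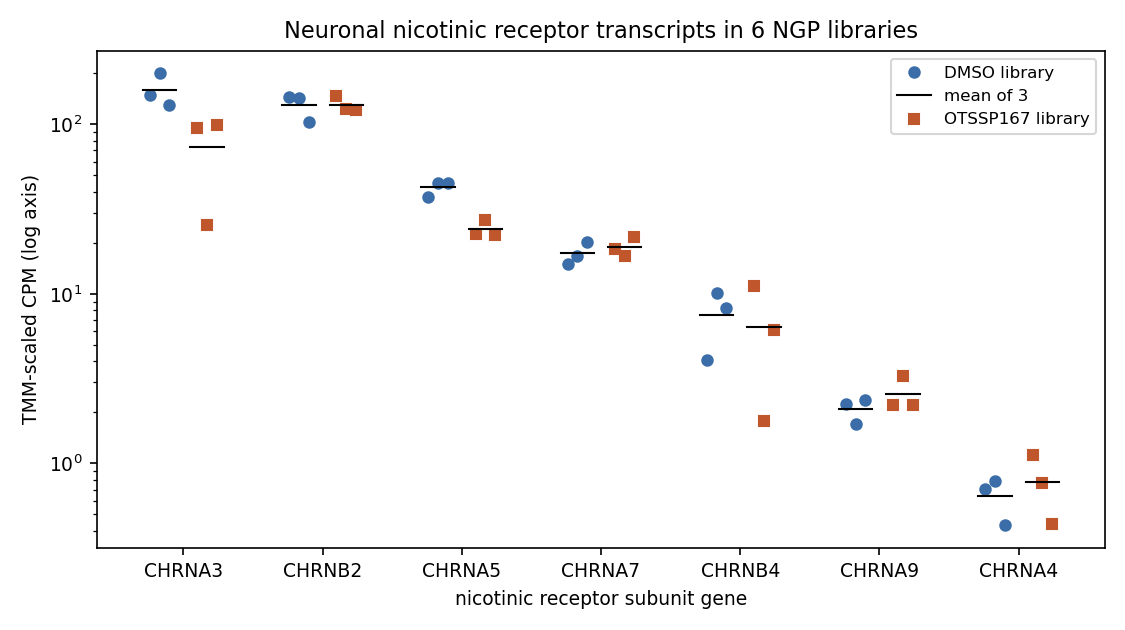
Level of each member in each of the 6 libraries, as TMM-scaled CPM on a log axis; circles are DMSO libraries, squares OTSSP167 libraries, and lines the mean of 3. CHRNA3 and CHRNA5 are the members whose treated libraries all lie below the control libraries, and 1 treated library stands far below the other 2 for CHRNA3.

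CHRNA5 encodes the accessory subunit alpha5, which joins other alpha and beta subunits and does not form channels alone. It stood at 37.0, 45.1 and 44.9 CPM in DMSO replicates 1 to 3 and at 22.5, 27.3 and 22.2 CPM in OTSSP167 replicates 1 to 3. The libraries of each group lay close together and the groups were well apart. The mean fell from 42.3 ± 4.62 to 24.0 ± 2.87 CPM (SD, n = 3), a log2 fold change of -0.82 (SE 0.14, 95% interval -1.16 to -0.48, edgeR adjusted p = 0.00545). It was lower in 3 of 3 treated libraries than in any control library, and 18.5% of tested genes had a lower log2 fold change. The call held in all 14 alternative settings, with adjusted p between 4.45e-07 and 0.0214.

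CHRNA3 encodes alpha3, the ligand-binding subunit of the ganglionic receptor. Its levels were 148, 199 and 130.5 CPM in DMSO and 95.1, 25.4 and 98.9 CPM in OTSSP167. OTSSP167 replicate 2 was far below the other treated libraries, with a ratio of 3.90 between the highest and lowest library of that group, against 1.53 in DMSO. The mean was 159 ± 35.7 CPM in DMSO and 73.1 ± 41.4 CPM in OTSSP167 (SD, n = 3), a log2 fold change of -1.12 (SE 0.53, 95% interval -2.45 to 0.21, edgeR adjusted p = 0.141). Without OTSSP167 replicate 2 the estimate was smaller, -0.72, and came nearest to the threshold (edgeR adjusted p = 0.0512). Its adjusted p was 0.0512 to 0.297 over the 14 alternatives, none of which passed. CHRNA3 spans 78593052 to 78621295 and CHRNA5 78565520 to 78595269 on chromosome 15 (GRCh38, GENCODE release 29). They lie on opposite strands, and 100 exon bases at their facing ends belong to both, 2.89% of the CHRNA3 exons and 2.76% of those of CHRNA5. The strand setting of the counting is not given in the sources used here, so reads of that stretch may be divided in an unknown way.

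CHRNB4 encodes beta4, the usual partner of alpha3, and lies 2.82 kb from the start of CHRNA3. Its levels were 4.06, 10.05 and 8.29 CPM in DMSO and 11.2, 1.79 and 6.09 CPM in OTSSP167. The treated group held both the highest and the lowest library, and OTSSP167 replicate 2 was the lowest for CHRNB4 as for CHRNA3. The means were 7.47 ± 3.08 and 6.35 ± 4.70 CPM (SD, n = 3), with a log2 fold change of -0.24 (SE 0.70, 95% interval -2.00 to 1.53, edgeR adjusted p = 0.807). The interval includes changes as large as that of CHRNA5 in either direction. The sign of the CHRNB4 estimate turned, to 0.21 without OTSSP167 replicate 2 (adjusted p = 0.770) and to 0.03 without DMSO replicate 2 (0.977). Over 14 alternatives the adjusted p lay between 0.343 and 0.977.

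CHRNB2 encodes beta2, which pairs with alpha4 in the brain and with alpha3 in ganglia. It was one of the most counted members, at 145, 142 and 103 CPM in DMSO and 146, 122 and 121 CPM in OTSSP167. The groups overlapped, with DMSO replicate 3 the lowest of all. Both means were close to each other, 129.9 ± 23.5 and 130.0 ± 13.9 CPM (SD, n = 3), and the 95% interval of the log2 fold change ran from -0.39 to 0.40 (edgeR adjusted p = 0.996). A change of the size seen for CHRNA5 lies outside that interval. CHRNA4, the partner of beta2 in the brain, was at 0.703, 0.783 and 0.432 CPM in DMSO and 1.12, 0.771 and 0.437 CPM in OTSSP167, on 16 to 44 counts a library. Its log2 fold change of 0.28 had a 95% interval of -0.87 to 1.43 (edgeR adjusted p = 0.651). Without OTSSP167 replicate 1 the CHRNA4 estimate was -0.07 (adjusted p = 0.917; 13 alternatives gave 0.359 to 0.947).

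CHRNA7 encodes alpha7. It stood at 15.04, 16.7 and 20.1 CPM in DMSO and 18.3, 16.7 and 21.6 CPM in OTSSP167, and the groups overlapped. The log2 fold change was 0.13 (SE 0.17, 95% interval -0.29 to 0.54, edgeR adjusted p = 0.569), and 0.016 without OTSSP167 replicate 3. Part of CHRNA7 is copied in CHRFAM7A, a hybrid gene on the same chromosome whose product lacks the start of alpha7, and reads from the copied part cannot be assigned with certainty. Of all stretches of 75 bases in the CHRNA7 transcript (GENCODE release 29), 81.4% also occur in CHRFAM7A. The 60 bases around the first shared base show where the transcripts become the same. Lower case marks the 30 bases that differ in origin and capitals the first 30 shared bases, and both stretches are coding in their transcript.
CHRNA7: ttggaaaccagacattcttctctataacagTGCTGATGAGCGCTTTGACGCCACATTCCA
CHRFAM7A: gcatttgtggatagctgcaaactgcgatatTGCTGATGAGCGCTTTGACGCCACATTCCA
CHRFAM7A itself had 61, 78 and 0 counts in DMSO and 349, 89 and 123 counts in OTSSP167, or 1.19, 1.65 and 0 CPM and 8.91, 1.56 and 3.36 CPM. The groups overlapped and it did not pass (edgeR log2 fold change 2.27 with SE 1.38, adjusted p = 0.233). With both genes summed, a setting chosen after seeing the data, the level was 16.2, 18.4 and 20.1 CPM in DMSO and 27.3, 18.2 and 24.95 CPM in OTSSP167. That sum did not pass either (edgeR log2 fold change 0.36 with SE 0.19, adjusted p = 0.164).

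CHRNA9, the alpha subunit of hair cells, was at 2.25, 1.71 and 2.35 CPM in DMSO and 2.19, 3.26 and 2.21 CPM in OTSSP167. OTSSP167 replicate 2 was the highest and the other treated libraries lay within the control range. The log2 fold change was 0.28 (SE 0.26, 95% interval -0.37 to 0.94, edgeR adjusted p = 0.422), and 0.064 without OTSSP167 replicate 2. The interval includes a rise as large as the fall of CHRNA5, but not a fall of that size.

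**Figure D2:**
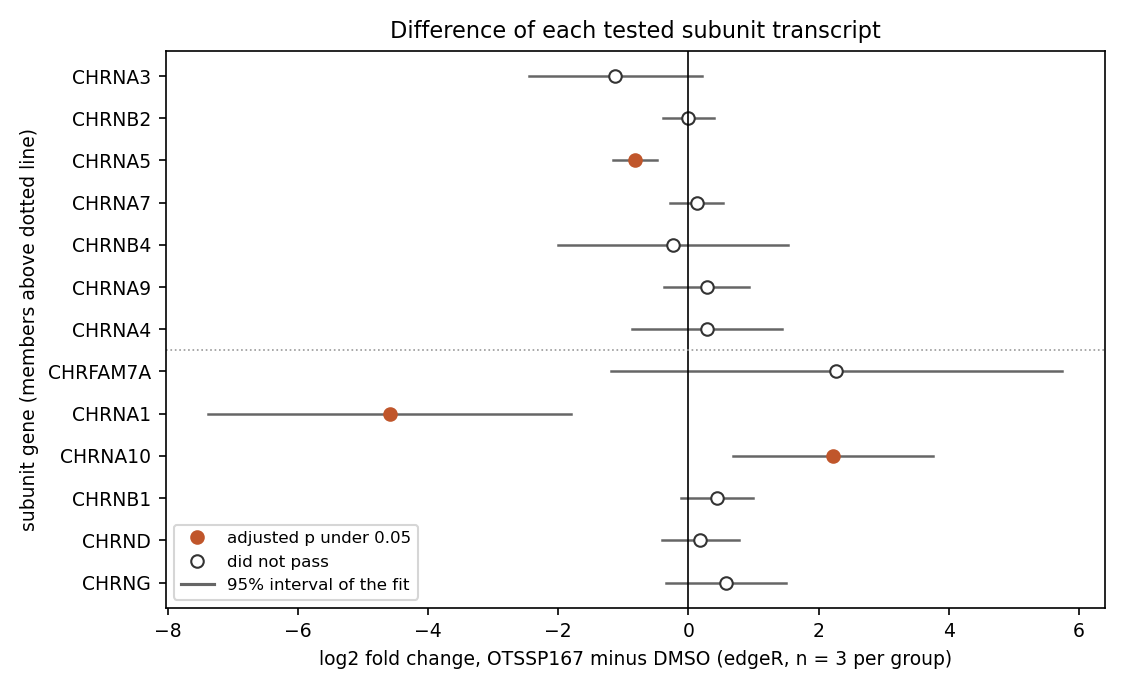
Log2 fold change of each tested subunit gene, OTSSP167 minus DMSO, from edgeR with 3 libraries per group; bars are 95% intervals of the fit and filled points passed at an adjusted p under 0.05. Among the members above the dotted line the CHRNA5 interval, -1.16 to -0.48, is the one that lies wholly on one side of 0.

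Levels of different genes were compared per kilobase of merged exons (GENCODE release 29), as CPM per kb. In DMSO the order was CHRNA3 at 46.0 ± 10.3, CHRNB2 at 22.1 ± 4.01 and CHRNA5 at 11.7 ± 1.28 CPM per kb, and the libraries of these 3 genes did not overlap. CHRNB4 at 2.85 ± 1.17 and CHRNA7 at 2.63 ± 0.390 CPM per kb followed, with overlapping ranges of 1.55 to 3.83 and 2.29 to 3.05. The place of CHRNA7 in both groups is uncertain, since reads from the part copied in CHRFAM7A cannot be assigned with certainty. CHRNA9 at 0.925 ± 0.151 and CHRNA4 at 0.112 ± 0.0321 CPM per kb were lowest and separate from each other. In OTSSP167 the leading pair was CHRNB2 at 22.1 ± 2.37 and CHRNA3 at 21.2 ± 12.0 CPM per kb. Their libraries overlapped, with CHRNB2 at 20.7 to 24.9 and CHRNA3 at 7.34 to 28.6. CHRNA5 at 6.62 ± 0.791 CPM per kb reached 7.53 in its highest library and so overlapped the lowest CHRNA3 library. CHRNA7 stood at 2.87 ± 0.381, CHRNB4 at 2.42 ± 1.79, CHRNA9 at 1.12 ± 0.268 and CHRNA4 at 0.136 ± 0.0599 CPM per kb. CHRNB4 overlapped both of its neighbours in that order. Summed over the 7 members, the level was 309 to 416 CPM in the DMSO libraries and 198 to 297 CPM in the OTSSP167 libraries, and CHRNA3 and CHRNB2 made up most of it. CHRNA3, which did not pass, was lower in OTSSP167 while the CHRNB2 groups overlapped, and the sum itself was not tested.

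Ratios between members were formed within each library, where depth cancels. The CHRNA7 to CHRNA3 ratio of counts was 0.102, 0.0840 and 0.154 in DMSO and 0.193, 0.656 and 0.218 in OTSSP167, so the groups did not overlap. Its mean log2 ratio went from -3.19 ± 0.45 to -1.73 ± 0.97 (SD, n = 3; two-sided exact permutation p = 0.1, 0.4 adjusted over 4 ratios). With 3 against 3 libraries 0.1 is the smallest p possible. The log2 difference of 1.46 was 0.91 without OTSSP167 replicate 2. The CHRNA7 counts in this ratio are uncertain because of the part copied in CHRFAM7A. CHRNA3, its other gene, was lower in every treated library and did not pass, so the ratio is not separate evidence. The ratio of CHRNB4 to CHRNA3 was 0.0275, 0.0504 and 0.0636 in DMSO and 0.118, 0.0704 and 0.0615 in OTSSP167. These groups overlapped (two-sided exact permutation p = 0.2, 0.4 adjusted). The ratio of CHRNA5 to CHRNA3 was 0.250, 0.226 and 0.345 in DMSO and 0.236, 1.08 and 0.224 in OTSSP167 (exact permutation p = 0.9, also adjusted). It was near 1 in OTSSP167 replicate 2, and without that library the log2 difference turned from 0.52 to -0.23. The ratio of CHRNB2 to CHRNB4 ran from 12.4 to 35.6 in DMSO and from 13.1 to 68.5 in OTSSP167 (exact permutation p = 0.6, 0.8 adjusted), with a log2 difference of 0.51 that turned to -0.19 without OTSSP167 replicate 2.

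**Figure D3:**
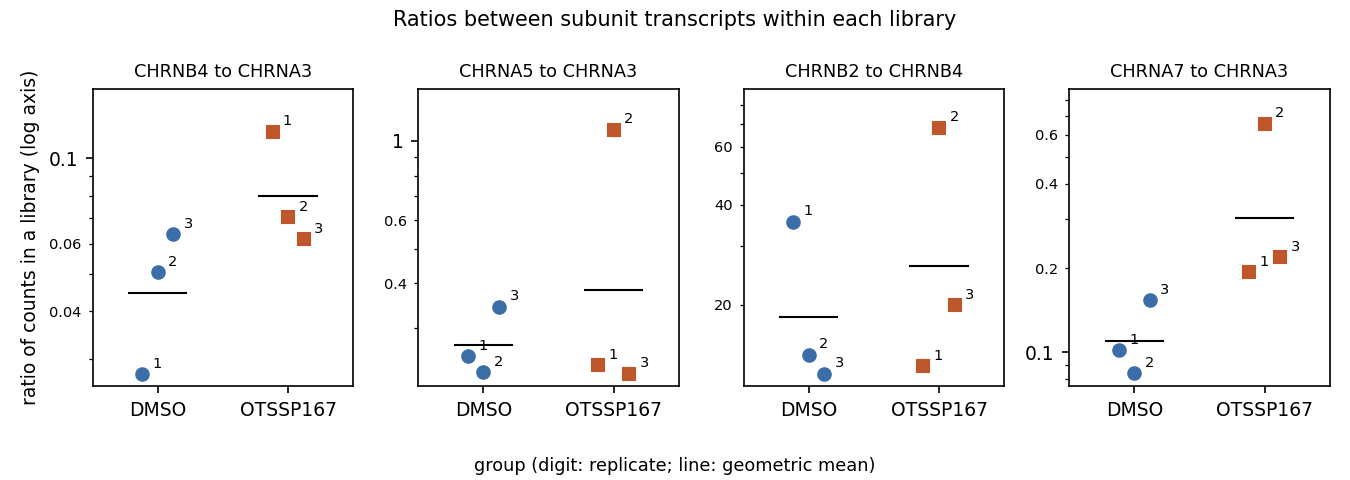
Ratio of the counts of a pair of subunit genes within each library, on a log axis; digits are replicate numbers and lines geometric means of 3. The CHRNA7 to CHRNA3 ratio is at most 0.154 in DMSO and at least 0.193 in OTSSP167, while OTSSP167 replicate 2 stands apart in the panels of CHRNA5 to CHRNA3, CHRNB2 to CHRNB4 and CHRNA7 to CHRNA3. The CHRNA7 counts are uncertain because of the part copied in CHRFAM7A.

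The genes whose log2 levels followed CHRNA3 most closely over the 6 libraries, among 9200 others of at least 10 CPM, were ZW10, MYEOV2 and ZBTB26 (Pearson r = 0.994, 0.993 and 0.988). MYEOV2 had 3.00 CPM in OTSSP167 replicate 2 and 14.2 and 17.4 CPM in the other treated libraries, a low value in the same library as CHRNA3. For CHRNB2 they were ALDH3A2, STARD10 and CANT1 (r = 0.987, 0.984 and 0.978), each lowest in DMSO replicate 3. The 6 points of each correlation share libraries and a group difference, and the genes were picked as the highest of 9200, so these values only describe the pattern.

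Around the 15q25 cluster, neighbouring genes moved in both directions. Of 7 tested neighbours 4 fell and 1 rose, with a median log2 fold change of -0.11. For comparison, 22.3% of all tested genes fell and 23.8% rose. PSMA4, a proteasome subunit gene which ends at -68.9 kb on a scale where the start of CHRNA3 is 0, fell from 179 ± 2.34 to 109 ± 4.52 CPM (SD, n = 3; edgeR log2 fold change -0.72 with SE 0.05, adjusted p = 2e-04). ADAMTS7, a secreted metalloprotease gene on the far side of CHRNB4, fell from 43.6 ± 11.1 to 7.12 ± 3.09 CPM (edgeR log2 fold change -2.61 with SE 0.39, adjusted p = 0.00397). HYKK, which encodes hydroxylysine kinase, rose from 0.654 ± 0.261 to 1.53 ± 0.296 CPM (edgeR adjusted p = 0.0491). The HYKK call was lost when DMSO replicate 1 (adjusted p = 0.116) or 3 (0.0910) or OTSSP167 replicate 1 (0.131), 2 (0.0964) or 3 (0.0818) was left out, and its alternatives gave 0.00661 to 0.131. MORF4L1 and CTSH, named after their values were seen, were the other neighbours that fell (edgeR adjusted p = 0.0268 and 0.0428). CTSH passed in no fit that left out a library (adjusted p 0.0527 to 0.11), nor with upper-quartile scaling (0.0790). MORF4L1, at a log2 fold change of -0.11, moved to -0.0073 with upper-quartile scaling (adjusted p = 0.849). It did not pass with the DESeq2 size factors (0.0605) or without DMSO replicate 1 (0.0577) or 2 (0.0674) or OTSSP167 replicate 2 (0.0773) or 3 (0.0726). With any single library left out, 2 or 3 of the neighbours passed.

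**Figure D4:**
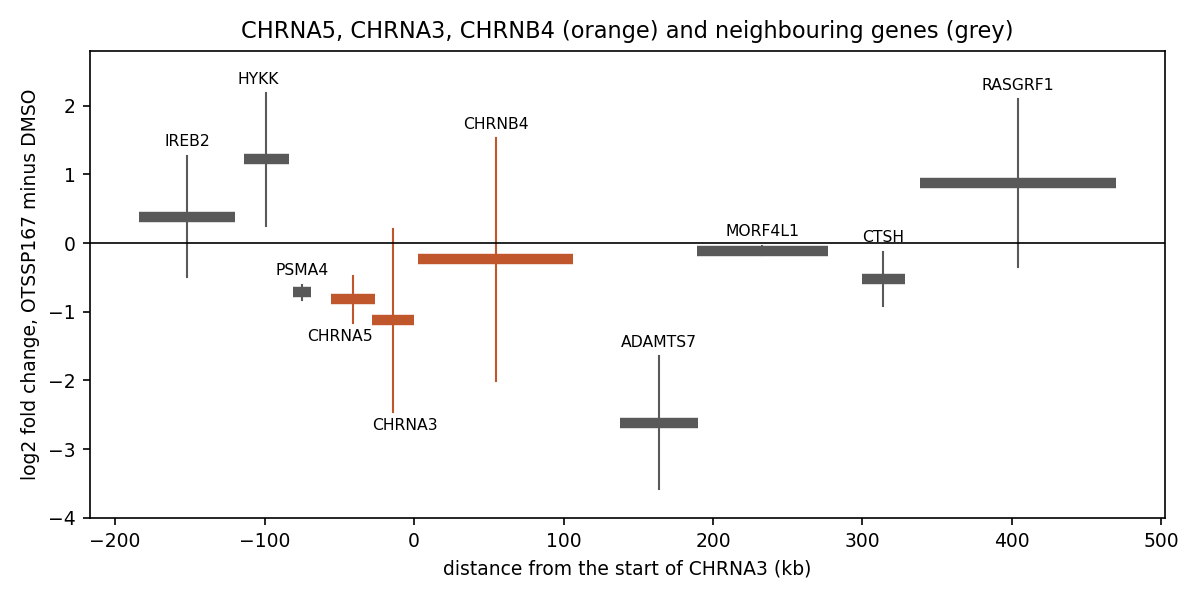
Log2 fold change of CHRNA5, CHRNA3 and CHRNB4 (orange) and of 7 neighbouring genes (grey) against distance from the start of CHRNA3; horizontal bars span the annotated gene, including a long alternative CHRNB4 transcript, and vertical lines are 95% intervals. ADAMTS7 at -2.61 is the lowest and HYKK at 1.22 the highest.

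The other nicotinic subunits include those of the muscle receptor, and few of them were counted at more than a few CPM. Of 10 genes, 6 were tested, 1 rose, 1 fell and 4 did not pass, while 46.1% of all tested genes passed. CHRND, the muscle delta subunit, was the most abundant, at 19.8, 17.7 and 11.9 CPM in DMSO and 18.1, 15.8 and 22.03 CPM in OTSSP167, with overlapping groups (edgeR adjusted p = 0.568). Per kilobase it stood at 5.55 ± 1.37 CPM per kb in DMSO, beside 2.63 ± 0.390 for CHRNA7. The CHRNA7 value is uncertain because of the part copied in CHRFAM7A. CHRNB1, the muscle beta subunit, measured 4.09 ± 0.209 and 5.53 ± 1.34 CPM (adjusted p = 0.163), and the fetal gamma subunit CHRNG 0.833 ± 0.287 and 1.25 ± 0.289 CPM (adjusted p = 0.252). CHRNA1, the muscle alpha subunit, had 30, 29 and 69 counts in DMSO and 0, 5 and 0 in OTSSP167, and it fell (edgeR adjusted p = 0.0211). The CHRNA1 call was lost when DMSO replicate 3 (adjusted p = 0.0591) or OTSSP167 replicate 1 (0.0522) or 3 (0.0537) was left out, and its alternatives gave 0.000418 to 0.0775. CHRNA10, the partner of alpha9 in hair cells, rose from 9, 18 and 33 to 54, 91 and 109 counts (edgeR log2 fold change 2.22 with SE 0.61, adjusted p = 0.0316). Its call was lost without DMSO replicate 1 (0.0578) or 2 (0.0937) or OTSSP167 replicate 2 (0.0603) or 3 (0.0840), with 0.00132 to 0.0937 over the alternatives. The span of CHRNA10 overlaps that of NUP98 on the same strand, with 0 exon bases shared, and the part of NUP98 reads in its counts was not tested. CHRNE, the adult epsilon subunit, had 0 counts in the 3 DMSO libraries and 11, 9 and 5 in OTSSP167 and was not tested, and 36.8% of its exon bases overlap C17orf107 and 10.5% MINK1, both on the other strand. CHRNA6 and CHRNB3 were at 0 throughout, and CHRNA2 had 12 counts in DMSO replicate 1 and 0 elsewhere. Skeletal muscle markers summed to 2.50 to 4.67 CPM in DMSO and 11.9 to 18.6 CPM in OTSSP167. One of 4 tested, MYH3, rose, from 0.112 ± 0.0891 to 11.6 ± 3.59 CPM (SD, n = 3), and made up most of the OTSSP167 sum. The median log2 fold change of that list was -0.59. MYOD1 was below 0.1 CPM on average in both groups. The part of muscle-type transcripts in the values of CHRNA1 and the other muscle subunits was not tested.

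Another list held chaperones of nicotinic receptors and Ly6 proteins that bind them, some of which restrain them. Of 13 tested with edgeR, 6 fell and 7 did not pass, with a median log2 fold change of -0.53 beside 0.0099 for all tested genes. Among all tested genes 22.3% fell and 46.1% passed in either direction. CRELD2, an endoplasmic reticulum protein reported to bind alpha4 and beta2, fell from 30.02 ± 1.10 to 14.8 ± 1.09 CPM (SD, n = 3; edgeR log2 fold change -1.02 with SE 0.10, adjusted p = 0.000939). CANX, the lectin chaperone calnexin, fell from 646 ± 19.2 to 554 ± 6.75 CPM (edgeR log2 fold change -0.22 with SE 0.03, adjusted p = 0.00205). The other 4 that fell were LYPD6, LYNX1, LYPD1 and VSNL1, named after their values were seen. LYPD6, LYNX1 and LYPD1 are Ly6 proteins that modulate the receptors at the membrane, and LYNX1 is known to restrain them. LYPD6 went from 26.6 ± 1.87 to 15.8 ± 1.73 CPM (edgeR adjusted p = 0.00542). LYNX1 did not pass without DMSO replicate 1 (0.0537) or OTSSP167 replicate 1 (0.0527) or 3 (0.0541), and LYPD1 in any fit that left out a library. VSNL1, a calcium sensor, passed only without OTSSP167 replicate 2 among those fits. Of the LYPD1 exon bases, 51.5% overlap GPR39 on the other strand. The count for the list was 3 to 6 with a single library left out. RIC3, a chaperone of alpha7, was scattered, at 6.41, 3.19 and 1.32 CPM in DMSO and 7.83, 7.45 and 1.39 CPM in OTSSP167 (adjusted p = 0.581), and TMEM35, which encodes the chaperone NACHO, was at 0 to 25 counts.

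Of 10 tested genes for making, moving or breaking down acetylcholine, 3 fell and 2 rose, with a median log2 fold change of -0.91. The shares over all tested genes were 22.3% lower and 23.8% higher. SLC18A3, the vesicular acetylcholine transporter, fell from 12.0, 9.54 and 6.50 CPM to 1.79, 1.19 and 1.31 CPM (edgeR log2 fold change -2.71 with SE 0.31, adjusted p = 0.00157). CHAT, choline acetyltransferase, named after its values were seen, went from 2.96 ± 0.484 to 0.934 ± 0.567 CPM (SD, n = 3; adjusted p = 0.0328). The CHAT call was lost without any DMSO library (0.0902, 0.0648 and 0.0761 for replicates 1 to 3) and without OTSSP167 replicate 1 (0.0710) or 2 (0.0960), with 0.00218 to 0.0960 over the alternatives. SLC18A3 lies within the CHAT gene, with 0 exon bases shared. ACLY, which supplies cytosolic acetyl-CoA for lipid synthesis as well as for acetylcholine, fell from 1022 ± 9.42 to 336 ± 8.77 CPM (edgeR log2 fold change -1.60 with SE 0.03, adjusted p = 5.74e-06). COLQ, the collagen tail that anchors acetylcholinesterase, rose from 2.52, 2.52 and 1.38 CPM to 14.0, 13.9 and 15.1 CPM (edgeR log2 fold change 2.74 with SE 0.28, adjusted p = 0.000981). PCYT1A, a regulatory enzyme of phosphatidylcholine synthesis, rose from 47.2 ± 2.77 to 64.2 ± 2.04 CPM (adjusted p = 0.00564). ACHE, acetylcholinesterase itself, was at 5 to 20 counts, and the choline transporter SLC5A7 was at 0 in the 6 libraries.

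Of the 5 muscarinic receptors, which answer acetylcholine through G proteins, CHRM5 rose, CHRM1 fell and 3 did not pass. With single libraries left out, 1 to 3 of them passed. In the main fit 46.1% of all tested genes passed. CHRM5 went from 0.612 ± 0.219 to 2.64 ± 0.363 CPM (SD, n = 3; edgeR log2 fold change 2.11 with SE 0.33, adjusted p = 0.00445). CHRM1 went from 3.56, 2.79 and 3.17 CPM to 0.357, 0.701 and 0.0819 CPM (edgeR log2 fold change -3.02 with SE 0.69, adjusted p = 0.0175). It did not pass without OTSSP167 replicate 1 (adjusted p = 0.0581; alternatives gave 4.96e-05 to 0.0581). CHRM2 measured 2.63 ± 1.55 and 9.61 ± 6.06 CPM (adjusted p = 0.0645). CHRM4 was at 0.255, 0.0351 and 4.94 CPM in OTSSP167, a mean that rests on replicate 3.

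**Figure D5:**
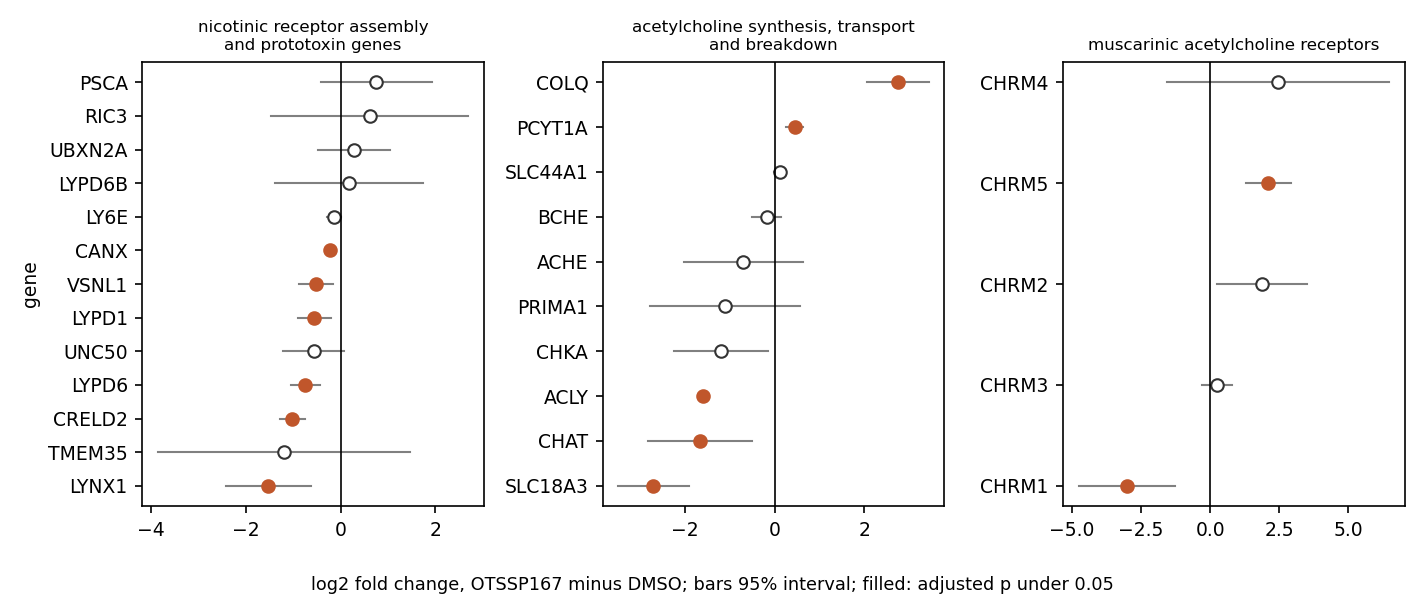
Log2 fold change, OTSSP167 minus DMSO, of tested genes for receptor assembly and Ly6 proteins, for acetylcholine handling and for muscarinic receptors; bars are 95% intervals and filled points passed at an adjusted p under 0.05. In the assembly panel the filled points all lie below 0, whereas the other panels hold filled points on both sides.

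Of 9 tested transcription factors that have been reported at the promoters of the cluster, in rodent or chick cells for several of them, 4 fell and 1 rose. Among all tested genes, 22.3% fell and 23.8% rose. PHOX2A, an autonomic homeodomain factor, fell from 304 ± 10.6 to 128 ± 10.7 CPM (SD, n = 3; edgeR log2 fold change -1.25 with SE 0.07, adjusted p = 0.000153). POU4F3, a POU factor of sensory cells, rose from 0, 8 and 0 counts to 112, 180 and 68 counts (adjusted p = 0.0150). SP1, which binds GC boxes such as those shown for CHRNA3, CHRNB4 and CHRNA7, was at 26.4, 103 and 152 CPM in DMSO and 77.5, 85.3 and 151 CPM in OTSSP167. Its groups overlapped widely (adjusted p = 0.861). SP3 was steady at 82.0 ± 4.57 and 86.7 ± 7.37 CPM (adjusted p = 0.480).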

How the data were processed

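The authors deposited 1 table of whole-number counts per gene symbol for 6 libraries (3 DMSO, 3 OTSSP167). TRIzol was used for extraction and a SMARTer mRNA kit for the libraries, per the labels' protocols. Per the submitters' processing notes, FastQC 0.11.2, HISAT2 2.1.0, StringTie 1.3.5 and the build GRCh38.p13 were used. Differential expression by the submitters used DESeq2, per the series design text. The counting step, annotation and strand setting were not given in the sources used here.

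Each column name gave a group and a replicate number, which matched 1 sample title. For 58 repeated symbols the row with most counts took the symbol. Counts were tested with edgeR 4.0.16 in R 4.3.3: filterByExpr, TMM, a robust quasi-likelihood fit with no covariate, and adjustment over 14402 genes at 0.05. The SE is the log2 fold change over the square root of F. At 36401828 to 57460375 counts a library, 3 counts correspond to 0.0526 to 0.0819 CPM. Within each group no library was a copy of another (chi-square per gene 89.3 to 105.7, where 1 is sampling noise). Alternatives used DESeq2 1.42.0, limma 3.58.1 (voom), other scalings and filters, a replicate block and left-out libraries. Besides the members, the rule named the 2 genes of smallest p in each direction from each list. Members and lists were chosen with earlier results of these data known. Positions and exon lengths came from GENCODE release 29, promoter windows from RefSeq. Some genes that the rule names are not reported here.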

Additional observations from a re-analysis of the deposited data

How the results depend on the processing

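The CHRNA5 fall passed in every alternative run, and CHRNA3, CHRNA4, CHRNA7, CHRNA9, CHRNB2 and CHRNB4 passed in none. With single libraries left out the log2 fold change ran from -1.40 to -0.72 for CHRNA3, -0.92 to -0.77 for CHRNA5, 0.016 to 0.23 for CHRNA7, 0.064 to 0.38 for CHRNA9, -0.074 to 0.56 for CHRNA4, -0.16 to 0.080 for CHRNB2 and -0.93 to 0.21 for CHRNB4. CHRNB2, at 0.0011, also turned to -0.0020 with limma-voom, -0.0058 with library size only and -0.0136 with no low-count filter. The count of genes passing over the whole table was 4887 (replicate block) to 8000 (DESeq2), and 5540 to 5870 with single libraries left out. Of the related genes, 39 passed, 23 with the replicate block and 25 to 30 with single libraries left out; 21 of the 39 passed in every alternative that tested them, and 0 changed direction. Same-numbered libraries correlated best with each other (r = 0.0237, 0.036 and 0.0262) but under 0.1, so the replicate block is a hint from the data, not the design. It changed no call among the 7 members (CHRNA5 -0.82, adjusted p = 0.0193; CHRNA3 -1.29, adjusted p = 0.212). Upper-quartile scaling moved the median of all genes to 0.11; CHRNA5 was then -0.72. CHRNA4 rested on 16 to 44 counts a library, and 4 other subunits did not pass the low-count filter. The cause of these differences was not tested.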

Other observations

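Nicotinic receptors belong to the pentameric channel family, and its other members moved in both directions. Of 17 tested genes for GABA-A, glycine, serotonin and zinc-activated channels, 5 rose and 3 fell, with a median log2 fold change of 0.13. Of all tested genes 23.8% rose and 22.3% fell, with a median of 0.0099. GABRG3, a GABA-A gamma subunit, fell from 17.4, 19.1 and 18.3 CPM to 7.55, 7.80 and 8.22 CPM (edgeR log2 fold change -1.22 with SE 0.11, adjusted p = 0.000698). HTR3A, the serotonin-gated channel nearest in type to the nicotinic receptors, fell from 7.34 ± 0.369 to 3.35 ± 0.182 CPM (SD, n = 3; edgeR log2 fold change -1.13 with SE 0.15, adjusted p = 0.00229). GLRA1, a glycine receptor subunit, rose from 3, 3 and 9 counts to 39, 40 and 21 counts (edgeR adjusted p = 0.0128). With single libraries left out, 4 to 6 genes of this list passed.

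Of 14 tested genes for anchoring receptors at synapses, 4 rose and 2 fell, beside 23.8% and 22.3% of all tested genes. NLGN1 and NLGN3, postsynaptic adhesion molecules of the neuroligin family, rose from 15.8 ± 0.449 to 26.1 ± 0.461 CPM and from 8.11 ± 0.416 to 13.8 ± 0.533 CPM (SD, n = 3; edgeR adjusted p = 0.00188 and 0.00416). AGRN, which encodes agrin, the organiser of receptors at the nerve-muscle junction, went from 72.0 ± 2.13 to 58.6 ± 5.03 CPM (edgeR adjusted p = 0.0316). AGRN passed without OTSSP167 replicate 2 and in no other fit that left out a library. With single libraries left out, 3 to 5 genes of this list passed. DLG4, the scaffold PSD-95, measured 23.8 ± 5.19 and 21.7 ± 5.27 CPM (edgeR adjusted p = 0.696).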
